A study of Arabidopsis thaliana with 8 samples.

Results

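Plastid fatty acid synthesis was followed here through 6 genes of Arabidopsis thaliana: the acyl carrier protein thioesterases FATB (AT1G08510), FaTA (AT3G25110) and AT4G13050, the ketoacyl reductase gene AT1G24360, and the hydroxyacyl dehydratase genes AT5G10160 and AT2G22230. Every probe whose platform annotation names one of these genes was taken, which gave 6 probes of the 3439 on each array. FATB and AT1G24360 each had a probe of their own. The other 4 probes are shared: probe 3455 by FaTA and AT4G13050, probe 1541 by all 3 thioesterase genes, and probes 3526 and 981 by the pair of dehydratase genes. The signal of a shared probe cannot be assigned to 1 of its genes. The arrays were hybridised with total RNA, 4 with RNA of root material and 4 with RNA of leaves, in both cases from wild-type plants of ecotype Columbia 0. No treatment, plant age or growth stage is given in the labels used here, and the labels do not state whether the 4 arrays of a tissue came from separate plants, so the p-values below measure the spread between these arrays, which may be technical.

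In plants most fatty acids are made inside plastids, in chloroplasts as well as in the colourless plastids of roots, on chains carried by acyl carrier protein. In each turn of the elongation cycle a condensing enzyme adds carbons to the chain, a ketoacyl reductase reduces the new keto group to a hydroxyl group, a hydroxyacyl dehydratase removes water, and an enoyl reductase completes the saturated chain. Thioesterases end the process by cutting the finished chain from its carrier, the FatA type mainly from oleoyl and the FatB type mainly from saturated chains, so that the acid can leave the plastid.

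Each value is a relative spot intensity, and in both tissues some probes were listed at exactly 0. The share at 0 lay between 12.8% and 15.1% on the root arrays and between 20.0% and 22.8% on the leaf arrays, and the array median lay between 0.258 and 0.317 in root and between 0.150 and 0.176 in leaf. In summed intensity the arrays of a tissue also fell into pairs. The sums were 3479 and 3505 in root replicates 1 and 2 and 2868 and 2923 in root replicates 3 and 4. They were 3400 and 3426 against 3021 and 3068 in the leaf arrays with the same numbers. Correlation of log2 values after quantile normalisation gave the same pairs in root, at 0.924 and 0.968 against at most 0.890 between pairs. In leaf it did so only for replicates 3 and 4, at 0.798. Leaf replicates 1 and 2 correlated at 0.758, below either with leaf replicate 4, at 0.759 and 0.764. The correlations lay between 0.885 and 0.968 in root and between 0.751 and 0.798 in leaf. As a check of the tissue labels, 8 probes for genes of photosynthesis, which mark leaf mesophyll, could be tested, of which 5 were lower and 1 was higher in root. None of the 11 genes chosen to mark root had a probe, so the root label was not checked with root markers. In whole tissue, fewer cells of a type and less RNA per cell cannot be told apart.

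The thioesterase FATB was brighter in root, with the lowest adjusted p of the member probes. Its probe read 0.460, 0.583, 0.709 and 0.747 in root replicates 1 to 4, against 0.0699, 0.128, 0.0430 and 0.163 in leaf replicates 1 to 4. All root arrays lay above all leaf arrays, and the lowest root reading was 2.82 times the highest leaf reading. The mean intensity was 0.625 ± 0.130 in root and 0.101 ± 0.0546 in leaf (SD, n = 4 arrays each), a ratio of 6.18. After quantile normalisation between arrays the log2 difference, root minus leaf, was 1.92 ± 0.41 (SE; limma, Benjamini-Hochberg adjusted p = 0.00675). Relative to its mean the spread was wider in leaf, with a coefficient of variation of 20.9% in root and 54.0% in leaf. Leaf was also the wider for AT1G24360 (11.4% in root and 27.2% in leaf) and for probe 3526 (25.4% and 35.6%). FATB passed the threshold of 0.05 with any 1 array left out (limma, adjusted p between 0.00768 and 0.0224). The log2 difference was 1.32 for replicates 1 and 2 and 2.52 for replicates 3 and 4, and with the arrays averaged within these pairs the adjusted p was 0.0622.

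FaTA and AT4G13050, the thioesterase genes of the FatA type, were read together by probe 3455, which was also brighter in root. It gave 0.544, 0.571, 0.289 and 0.342 in root replicates 1 to 4, against 0.0482, 0, 0 and 0.0760 in leaf replicates 1 to 4. The groups did not overlap, and the lowest root array stood at 3.80 times the highest leaf array. In root, replicates 1 and 2 were brighter than replicates 3 and 4, the opposite of the order of these replicates for FATB. With 2 leaf arrays listed at 0, the log2 difference of 3.77 ± 1.12 (SE; limma, adjusted p = 0.0303) depended on how a 0 was treated. It was 2.56 with a floor at the 5th percentile of the positive intensities and 2.02 with an offset in place of a floor. With values of 0 set to missing it was 1.65 ± 0.30 (limma, adjusted p = 0.00459). That setting kept only leaf replicates 1 and 4, the leaf arrays with a reading, so its smaller p is not firmer support. Only without leaf replicate 1 or leaf replicate 4, among the arrays left out 1 at a time, did the probe keep its call, while without any other array the adjusted p from limma lay between 0.0538 and 0.0701. The third thioesterase probe, 1541, which names FATB, FaTA and AT4G13050, was listed at 0 on all 8 arrays and could not be tested. It was 1 of 132 such probes among the 3439, or 3.84%.

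**Figure D1:**
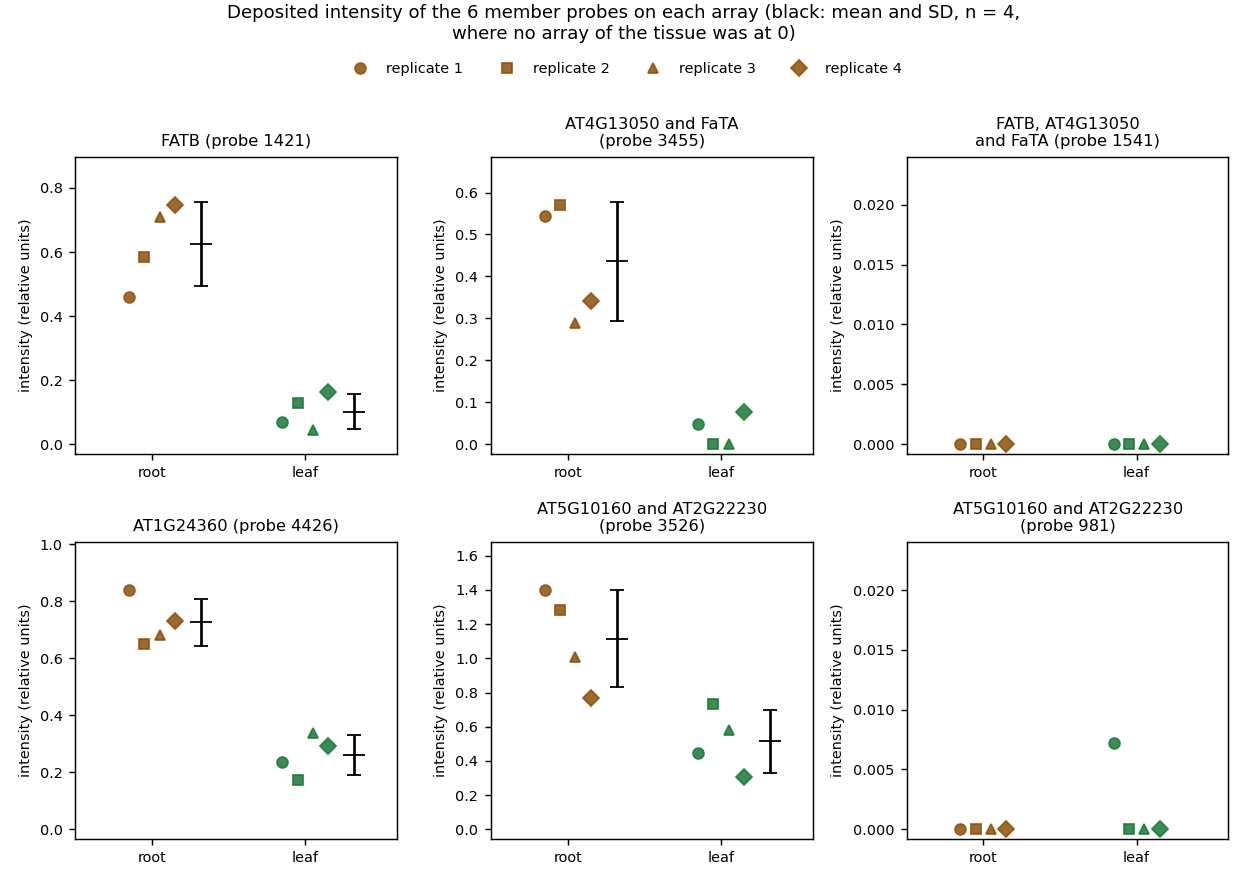
Deposited intensity (relative units, linear axes that differ between panels) of the 6 member probes, with root left of leaf, a marker shape for each replicate, and a black bar for the mean and SD (n = 4) where no array of the tissue was at 0. The probes of FATB, of FaTA and AT4G13050, of AT1G24360 and probe 3526 have all root arrays above all leaf arrays, whereas probes 1541 and 981 lie at or near 0 in both tissues.

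In the elongation cycle, AT1G24360, whose product reduces the keto group of the growing chain, was brighter in root with little spread. The readings were 0.839, 0.651, 0.681 and 0.732 in root replicates 1 to 4, against 0.237, 0.173, 0.337 and 0.291 in leaf replicates 1 to 4. The lowest root array stood at 1.93 times the highest leaf array. The means were 0.726 ± 0.0827 in root and 0.259 ± 0.0707 in leaf (SD, n = 4 each), a ratio of 2.80, and the root coefficient of variation of 11.4% was the lowest among the member probes. The log2 difference after normalisation was 0.96 ± 0.22 (SE; limma, adjusted p = 0.0107). It was 1.04 for replicates 1 and 2 and 0.89 for replicates 3 and 4, and with the arrays averaged within the pairs the adjusted p was 0.143. The call was kept with any 1 array left out (limma, adjusted p between 0.0109 and 0.0315).

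The dehydratase genes AT5G10160 and AT2G22230, which act on the next step of the cycle, were read by a pair of probes that gave different pictures. Probe 3526 read 1.4, 1.28, 1.01 and 0.770 in root replicates 1 to 4, against 0.443, 0.731, 0.579 and 0.304 in leaf replicates 1 to 4. As deposited, the root arrays were all above the leaf arrays, but root replicate 4 was only 1.05 times leaf replicate 2, and after normalisation these arrays overlapped, at 0.775 in root and 0.794 in leaf. The mean intensity was 1.11 ± 0.283 in root and 0.514 ± 0.183 in leaf (SD, n = 4 each), and the log2 difference of 0.85 ± 0.29 (SE) passed narrowly (limma, adjusted p = 0.0478). It was 0.86 for replicates 1 and 2 and 0.84 for replicates 3 and 4. The probe kept its call only without root replicate 4 or leaf replicate 2, the arrays that overlapped, among the arrays left out 1 at a time. Without any of the others the adjusted p from limma lay between 0.0568 and 0.110.

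Probe 981, annotated to the same dehydratase genes, was listed at 0 on all 4 root arrays and on leaf replicates 2, 3 and 4, and read 0.00721 on leaf replicate 1. Its log2 difference of -0.81 ± 0.74 did not pass (limma, adjusted p = 0.401). That value came from the single reading, which normalisation moved to 0.0546, and on the intensities as deposited the difference was -0.08 ± 0.17. The dehydratase result therefore comes from 1 of the probes that name these genes.

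Of the 6 member probes, 5 could be tested, and 4 of these were called higher in root and 0 lower. This count was between 2 and 3 with any 1 array left out. It was 2 by a separate-variance test of each probe, which FATB and AT1G24360 passed, and 1 with the arrays averaged within the pairs of replicates. In that last setting only the probe of FaTA and AT4G13050 passed. The 2 leaf readings of 0 of this probe fell 1 in each pair, and its SE was 0.386 with averaging, against 1.12 without. By the separate-variance test this probe did not pass (adjusted p = 0.120). Over all 3298 probes tested, 20.1% were called higher and 22.1% lower in root, and the median log2 difference was 0.05, compared with 0.96 over the 5 member probes. The 4 called probes had every root array above every leaf array in deposited intensity, which 35.7% of all tested probes also had. After normalisation 3 of the 4 still had no overlap, probe 3526 being the exception, against 22.2% of all tested probes. Among all tested differences, that of FaTA and AT4G13050 exceeded 96.1%, that of FATB 83.1%, that of AT1G24360 69.0% and that of probe 3526 67.0%.

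A rank within the array does not depend on how arrays are scaled to each other, so it was read for each member as the share of the 3439 probes that were dimmer on the same array. Quantile normalisation works from the same ranks, so they are a description and not a separate check of the overlap given above. For FATB this share was 62.1%, 69.2%, 80.1% and 80.8% in root replicates 1 to 4, and 36.2%, 46.4%, 27.9% and 48.2% in leaf replicates 1 to 4. FATB thus stood above the middle of the array on every root array and below it on every leaf array. For AT1G24360 the share lay between 72.3% and 80.4% in root and between 53.0% and 66.9% in leaf, again without overlap. The probe of FaTA and AT4G13050 was above between 53.6% and 68.5% of the probes in root, and above at most 34.1% in leaf. Probe 3526 of the dehydratase genes ranked high in both tissues, above between 81.2% and 88.7% of the probes in root and between 64.1% and 81.7% in leaf, and here the tissues overlapped.

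**Figure D2:**
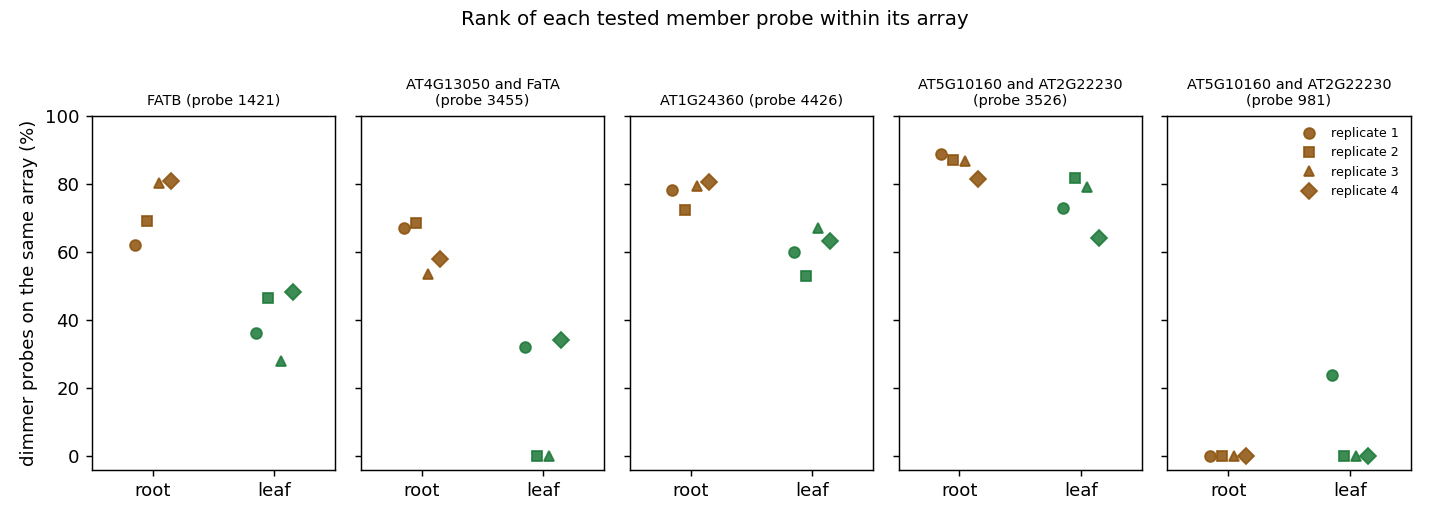
Rank of the 5 tested member probes, as the percentage of probes on the same array that were dimmer (vertical axis, 0 to 100), with root left of leaf and a marker shape for each replicate. FATB lies between 62.1% and 80.8% in root and between 27.9% and 48.2% in leaf, while probe 3526 overlaps between the tissues.

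Scaling between arrays changed the size of these differences. On the intensities as deposited the median log2 difference of all probes was 0.80 and root took 69.8% of all calls, compared with 47.7% after quantile normalisation. FATB differed by 2.78 ± 0.44 as deposited, which was 1.98 above the median of all probes, and by 1.95 ± 0.47 with the arrays centred on their medians, 1.92 above it. FATB therefore kept nearly the same distance from the median probe, which was 1.87 after quantile normalisation. AT1G24360 differed by 1.52 ± 0.25 as deposited, 0.72 above the median of all probes, while median centring gave 0.69 ± 0.24 (limma, adjusted p = 0.0490). The dehydratase probe 3526 was the only called member whose call was lost under another of the 4 scalings. It stood at 1.15 ± 0.33 as deposited, 0.35 above the median of all probes, and at 0.32 ± 0.34 with median centring, where it was not called (limma, adjusted p = 0.455). For FaTA and AT4G13050 the distance from the median of all probes lay between 3.67 and 3.86 under all 4 scalings. The 2 leaf readings of 0 were at the same floor under each scaling, so this range does not show how the size depends on the floor. With quantile normalisation the difference was 2.56 with the 5th percentile floor and 1.65 with values of 0 set to missing.

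**Figure D3:**
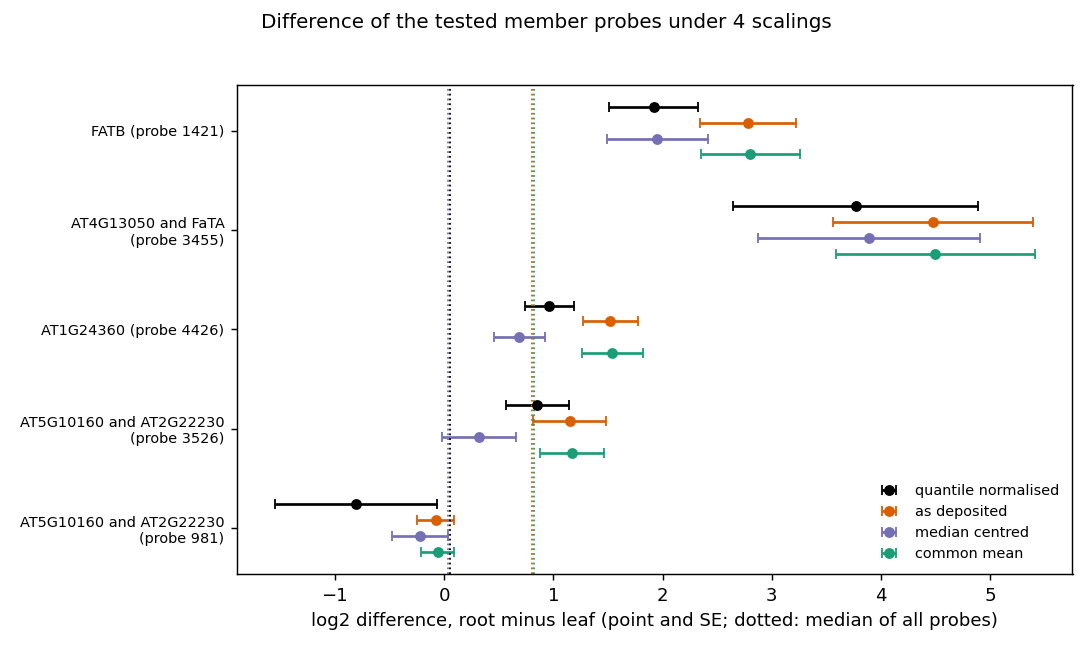
Log2 difference, root minus leaf, of the 5 tested member probes under 4 ways of scaling the arrays (points, with bars for limma's SE), with dotted lines at the median difference of all probes under the same scaling. FATB and the probe of FaTA and AT4G13050 stay well right of the dotted lines, the latter with 2 leaf arrays at the same floor under each scaling. Probe 3526 is within 0.35 of the lines under the 3 scalings other than quantile normalisation.

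FATB and AT1G24360, the members with their own probes, were compared with each other through the ratio of their deposited intensities on each array. The level of this ratio has no meaning between probes, but a change of it between tissues does not depend on a scale factor of the array. The log2 ratio of FATB to AT1G24360 was -0.87, -0.16, 0.06 and 0.03 in root replicates 1 to 4, and -1.76, -0.43, -2.97 and -0.83 in leaf replicates 1 to 4. Root replicate 1 fell among the leaf arrays, so that the tissues overlapped. The mean was -0.23 ± 0.43 in root and -1.50 ± 1.13 in leaf (SD, n = 4 each), and the difference of 1.26 ± 0.60 (SE) did not pass (exact permutation test over the 70 relabelings of the arrays, two-sided p = 0.0857, where the smallest possible p is 0.0286). A larger tissue difference of FATB than of AT1G24360 was therefore not shown by these arrays.

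The genes with the most similar pattern were found by correlation of normalised log2 values over the 8 arrays, among 392 other probes with 1 gene and no reading of 0. Such probes share a difference between the tissues with the member, and the correlation is given as a description. AT3G51320 came first for FATB (r = 0.971), with 0.453 ± 0.0646 in root and 0.133 ± 0.0601 in leaf (SD, n = 4 each), followed by AT4G23080 (r = 0.942) and AT4G27510 (r = 0.933). For AT1G24360 the first was AT2G25640 (r = 0.969), with 1.25 ± 0.0450 in root and 0.265 ± 0.116 in leaf, followed by AT1G73430 (r = 0.955) and AT3G57440 (r = 0.949). FATB and AT1G24360 correlated with each other at r = 0.752, which put AT1G24360 in place 86 for FATB and FATB in place 93 for AT1G24360.

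The rest of the pathway was read from lists of 67 genes on fatty acid synthesis, export and lipid assembly, of which 13 had a probe, the 6 members among them. No probe was found for the 12 genes that supply pyruvate and acetyl groups, for the 11 genes of acetyl-CoA carboxylase, malonyl transfer and acyl carrier protein, or for the 15 genes of plastid lipid assembly and desaturation. The condensing enzymes and the enoyl reductase of the elongation cycle likewise had none, so the cycle was seen only at its reduction and dehydration steps. Without the members, 6 probes for 7 genes of the lists remained. Of these probes 1 was called higher in root, 0 were called lower and 5 did not pass. Their median log2 difference was -0.01.

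Between the elongation cycle and the thioesterases act the desaturases of the stearoyl carrier protein desaturase family, which put the first double bond into the chain. Of the 7 desaturase genes 5 had a probe, on 4 probes, and 0 of these passed (limma; 0 at an unadjusted p below 0.05 and 0 by the separate-variance test). AT5G16230 had its own probe, 3394, which read 0.363, 0.275, 0.0938 and 0.0750 in root replicates 1 to 4, against 0.295, 0.161, 0.212 and 0.121 in leaf replicates 1 to 4. The root arrays lay on both sides of the leaf arrays, replicates 1 and 2 high and replicates 3 and 4 low, and the log2 difference was -1.30 ± 0.66 (SE; limma, adjusted p = 0.156). It was -0.40 for replicates 1 and 2 and -2.21 for replicates 3 and 4. The size depended on the scaling, at -0.20 on the intensities as deposited, where the means were 0.202 in root and 0.197 in leaf.

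AT3G02610 and AT3G02620, desaturase genes that follow each other directly in the order of coding genes, share probe 686. It read 0.239, 0.324, 0.162 and 0.198 in root replicates 1 to 4, against 0, 0.136, 0.0759 and 0.0832 in leaf replicates 1 to 4. As deposited, all root arrays lay above all leaf arrays. After normalisation leaf replicate 2, at 0.207, was above root replicates 1, 3 and 4, at 0.166, 0.126 and 0.161. The log2 difference of 1.36 ± 1.08 did not pass (limma, adjusted p = 0.344), with 1 leaf array at 0. That array carried much of the value, which was 0.20 with values of 0 set to missing and 0.19 without leaf replicate 1, and was not called in either case. The remaining desaturase probes, 1293 for AT3G02610, AT3G02620 and AT5G16230 and 4461 for AT5G16240 and AT3G02630, differed by -0.22 ± 1.09 and 0.12 ± 1.05. Neither passed. The sign of probe 1293 turned with the scaling and that of probe 4461 with the floor. With values of 0 set to missing, which removed its reading on leaf replicate 1, probe 1293 was called lower in root, at -1.35 ± 0.43 (limma, adjusted p = 0.0319). With leaf replicate 1 left out of the whole fit it was at -1.28 and was not called (limma, adjusted p = 0.0567). The call was the only 1 in 21 alternatives.

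Export of the finished acids was represented by probe 1019, shared by AT3G57280, which encodes the fatty acid exporter FAX1 of the plastid envelope, and AT2G38550. The signal of probe 1019 cannot be assigned to either gene. The probe was dim but even in root, at 0.0958, 0.135, 0.109 and 0.121 in replicates 1 to 4, and was listed at 0 on all 4 leaf arrays. Because the leaf arrays were at 0, no fold is given. The probe passed as brighter in root (limma, adjusted p = 7.46e-06). All leaf arrays were raised to the same floor, so they had no spread in this fit, and the size of the p-value depended on the setting. The adjusted p from limma was 0.0011 with the floor at the 5th percentile and 0.0195 with the arrays averaged within the pairs. The call was kept in all 20 alternatives that gave a value. No other probe of these lists outside the members was called. AT2G04540, the gene of the mitochondrial condensing enzyme of fatty acid synthesis, stands outside the plastid pathway. Its probe read 0.411 ± 0.0590 in root and 0.304 ± 0.128 in leaf (SD, n = 4 each), and the log2 difference of -0.13 ± 0.26 after normalisation did not pass (limma, adjusted p = 0.708). As deposited the difference was 0.52 ± 0.32, so its sign depended on the scaling.

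**Figure D4:**
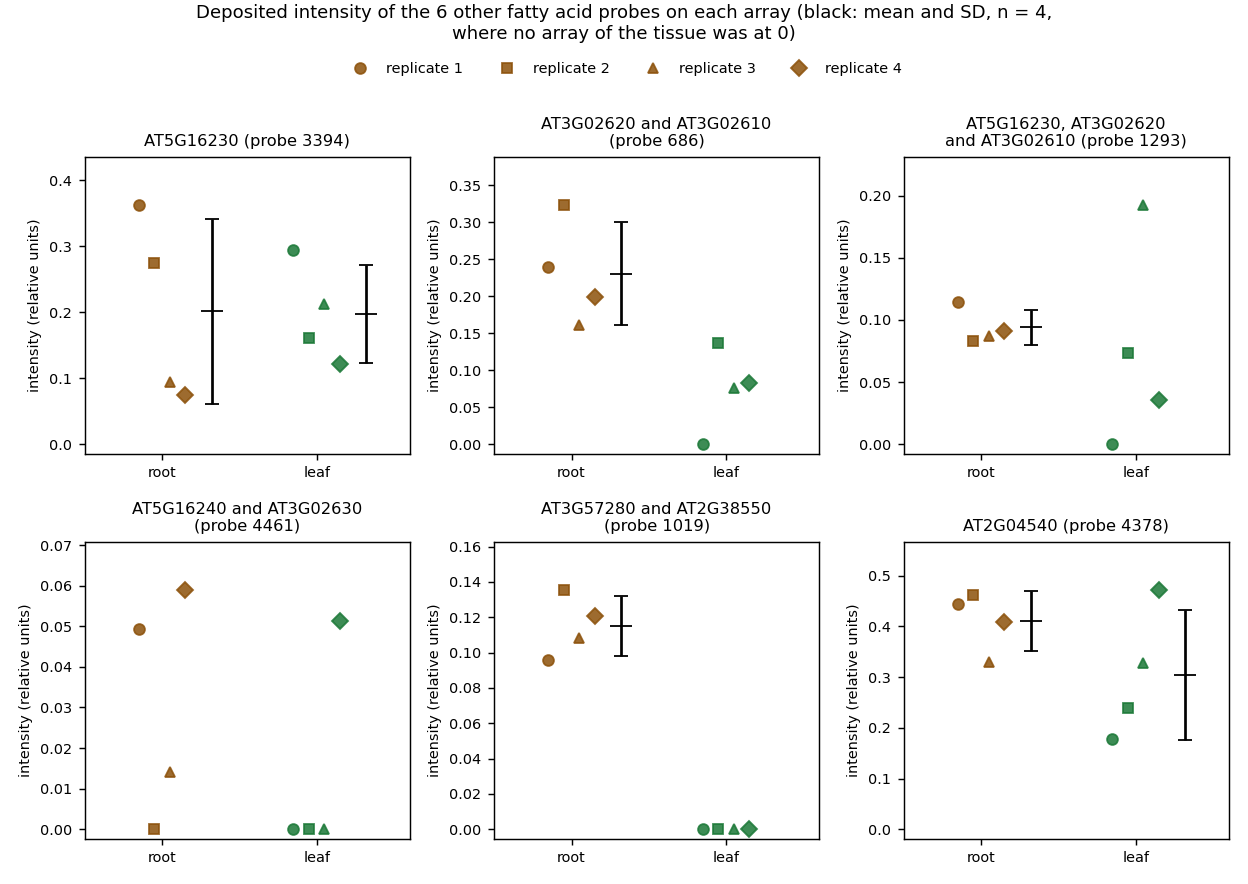
Deposited intensity (relative units, linear axes that differ between panels) of the 6 other probes on the fatty acid lists, drawn as for the members, with root left of leaf. Probe 1019 is at 0 on all 4 leaf arrays and between 0.0958 and 0.135 in root, and the desaturase probe 3394 has root arrays both above and below the leaf arrays.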

How the data were processed

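The deposited values are spot intensities on a relative linear scale. How the authors obtained the intensity values is not given in the sources used here. The highest value was 100 on every array, and whether the arrays were scaled or cut at this value before deposit is not given. The values called as deposited may therefore already be scaled. Groups and replicate numbers came from the sample titles. Genes came from the platform annotation by probe number, and names and gene order from the RefSeq table of assembly TAIR10.1. No coordinates are printed, because the values name no genome build. The members, lists and alternatives were chosen with earlier results of these data known.

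After quantile normalisation between arrays, values under 0.00582, the 1st percentile of the positive deposited intensities, were raised to it, and log2 was taken. In all, 141 probes never exceeded this floor, those listed at 0 on every array among them, and were not tested. The contrast of root with leaf was fitted over the remaining 3298 probes with limma 3.58.1 (R 4.3.3; lmFit, eBayes, two-sided, no term besides tissue), with Benjamini-Hochberg adjustment and a threshold of 0.05. The fit was also run on simulated data, with normal noise of equal spread in both tissues, no floor, and differences placed only in the brighter probes. That run cannot tell how the fit treats probes with readings of 0 or with unequal spread. The number of arrays limits the precision. All member probes, all probes of the fatty acid lists, and the 3 most correlated probes with 1 gene for each member with its own probe are named. Figures were drawn with matplotlib 3.10.9.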

Additional observations from a re-analysis of the deposited data

Results flagged for a closer look

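The reading of 0.00721 for probe 981 (AT5G10160 and AT2G22230) on leaf replicate 1 stood apart from the other 3 leaf arrays, which were all listed at 0. The same held for the reading of 0.0513 for probe 4461 (AT5G16240 and AT3G02630) on leaf replicate 4, with the other 3 leaf arrays at 0. These were 2 of 20 groups of 4 arrays examined for a distant sample. Chance gives such a result in about 1 of 20 groups of measured values, a rate that does not apply here, because with 3 arrays tied at 0 any positive reading stands apart. Neither difference between the tissues passed the test.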

How the results depend on the processing

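The count of 4 member probes called was 1 with replicates averaged in pairs (replicates 1 and 2, and 3 and 4) and 2 with the separate-variance test, and lay between 2 and 3 with 1 array left out, at 2 without root replicate 1, 2 or 3 or leaf replicate 3. The calls over all probes fell to 706 with replicates averaged in pairs, against 1393. The 4 called member probes kept their direction under all 22 alternatives. Those alternatives that changed only the error model or the filter on dim probes, or averaged arrays in pairs, left the log2 difference as it was. In these the direction could not turn. FATB and AT1G24360 were called in 21 each, the probe of FaTA and AT4G13050 in 15 and probe 3526 in 13. The floor at the 1st percentile of the normalised values (0.00998) was added after seeing the data and left 4 called. The difference between FATB and AT1G24360 lay between 0.77 and 1.62 without 1 array and did not pass in any alternative run (p between 0.0571 and 0.171). The sign of 3 probes that did not pass after quantile normalisation and flooring turned. Probe 1293 was at 1.17 on the deposited intensities and with a common mean, at 0.49 with median centring, and between -1.28 and 0.50 without 1 array; with values of 0 missing it was at -1.35 and was called lower in root (limma, adjusted p = 0.0319). AT2G04540 was at 0.52 as deposited, at 0.54 with a common mean, and between -0.29 and 0.064 without 1 array. Probe 4461 was at -0.37 with the 5th percentile floor, at -0.078 with the floor from normalised values, at -2.44 with values of 0 missing, at -0.035 with the offset, and between -0.31 and 1.12 without 1 array. The replicate numbers did not pair the arrays by the criterion used (correlations of deviations from 0.0901 to 0.126, not all above 0.1), although every array correlated best with its own number. With a replicate block 4 member probes and 1244 probes in all were called. Probes 981, 1019, 1293 and 4461 gave no value in some alternatives, where they were filtered out or no positive reading was left in a tissue. Readings of 0 give no measure of how far below detection a transcript lay.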
